A study of Mus musculus with 384 samples.

Results

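Expression was described in CD8 T cells from B16F10 melanomas, 72 cells from wild-type and 77 from Il27ra knockout tumour-bearing mice of strain C57BL/6. The CD8 wells were named by the sample titles, and a well was kept where at least 1000 genes reached 1 FPKM, a level normalized to transcript length and library size. This kept 72 of 94 wild-type and 77 of 94 knockout wells on 2 of the 4 plates of the series. The lowest kept wild-type well held 1004 such genes and the highest left out held 941, whereas the corresponding knockout wells held 1075 and 924. Each plate also held 1 population well of the same source and 1 well without a cell. The study sorted tumour-infiltrating CD8 and CD4 cells from both genotypes onto 4 plates and profiled them by Smart-seq2, which reads full-length transcripts without molecular identifiers. B16F10 is a transplantable pigmented melanoma line, and no treatment beyond the tumour is named in the labels. The titles give 1 source name per genotype, WT4 and KO4, which the labels do not explain, so mouse, plate and genotype cannot be told apart. For the same reason cells were not used as replicates and no test of genotype was made: spreads between cells and intervals on shares describe these plates.

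IL-27 is a cytokine of the IL-12 family made mainly by myeloid cells, and its receptor pairs the chain encoded by Il27ra with gp130, encoded by Il6st. Binding activates JAK kinases and STAT transcription factors, STAT3 among them, and the SOCS proteins act as feedback inhibitors of this signal. In T cells IL-27 is known to induce IL-10 and several co-inhibitory receptors. CD8 T cells in tumours range from stem-like cells, which hold the factor TCF-1 and the IL-7 receptor, to chronically stimulated cells, which hold PD-1, TIM-3 and the factor TOX.

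The sorted cells carried the markers of their label. At least 1 of Cd8a, Cd8b1 and Cd3e reached 1 FPKM in 95.8% of cells of the wild type and 98.7% of the knockout. Cd4 was seen in 0 of 72 cells of the wild type and 1 of 77 of the knockout, and Ncr1, a natural killer cell receptor gene, in none of either plate. At least 1 of 4 markers of CD4 and regulatory T cells was seen in 13.9% and 14.3% of cells, and Klrb1c, the other natural killer marker used, in 8.33% and 9.09%. In the population libraries Cd40lg, one of the CD4 markers, lay at 0 and 78.2 FPKM and Klrb1c at 4.36 and 47.1, so both were higher in the knockout library. Il27ra itself (mm10 chromosome 8, 84030294 to 84042589) reached 1 FPKM in 51.4% of cells of the wild type and 57.1% of the knockout, and the population libraries held 155.4 and 92.9 FPKM. Which part of the gene the knockout lacks is not stated in the sources used here, so a value summed over the gene does not check the genotype labels.

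The wild-type cells held more genes per cell, with a median of 2530.5 against 2243 detected genes. Results are therefore also given for 50 cells of each plate paired to within 100 detected genes, with medians of 2346 and 2320.5, and these are called matched cells. The part of this gap in any result was not tested otherwise. Markers of melanoma or myeloid cells other than Tyr were detected in 43.1% of wild-type and 29.9% of knockout cells. Melanoma markers summed to 2.28 to 14139 FPKM in wild-type cells (median 10.3) and to 0 to 1034 in knockout cells (median 8.07), and to 56.7 and 8.49 in the population libraries. The 7 myeloid markers summed to 0 to 8011 and 0 to 1911 FPKM, with medians of 0 in both plates, and C1qa was not detected at 1 FPKM in any kept cell. In the population libraries the myeloid sums went the other way from the melanoma sums, at 366.4 FPKM in the wild type and 503.3 in the knockout. The part of these cells or transcripts in the results was not tested beyond leaving out marker-positive cells.

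Per gene, the mean over cells of log2(FPKM + 1) was taken and the wild-type mean subtracted from the knockout mean. This scale understates differences of low genes and carries the share of cells in which a gene was detected. On it, genes past 1 log2 in cells were more common at higher levels, in both directions. Lists are set against all genes below and were not compared with genes of equal level. Among 8117 genes detected in at least 10% of cells of either plate, 746 (9.19%) were at least 1 log2 lower in knockout cells and 2.07% at least 1 log2 higher. In the population libraries, 646 of the same genes (7.96%) were at least 1 log2 lower and 903 (11.1%) higher. In bulk libraries such as these, fewer cells of a type and less RNA per cell cannot be told apart. Of all genes, 67.98% lay below 0 in cells and 47.9% in the population libraries, and list counts on either side of 0 are to be read against these shares. The median difference of all genes was -0.22 log2 in cells and 0.02 in the population libraries. With cells centred on that median, 5.41% of genes were lower and 3.46% higher. The FPKM values of a kept cell summed to a median of 957169 in the wild type and 741131 in the knockout. With each cell rescaled to one sum, 6.79% were lower and 2.88% higher. With arithmetic means of FPKM, which weight the highest cells, 12% were lower and 8.22% higher. Without cells positive for a melanoma or myeloid marker other than Tyr, 14.1% were lower and 2.65% higher. Without cycling cells (described further on), 6.10% were lower and 3.28% higher. In matched cells the median was 0.00, with 4.48% of genes lower and 5.23% higher. The excess of lower genes was thus not seen at equal numbers of detected genes. Such pairing evens out the detection shares over all genes, so this balance follows in part from the matching.

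Both readouts shared 98 lower genes (1.21%) and 76 higher genes (0.936%). The 98 were 13.1% of the genes lower in cells and 15.2% of those lower in the population libraries. The 76 were 45.2% of the genes higher in cells and 8.42% of those higher in the population libraries. Of the genes lower in cells, 76.4% were lower by any amount in the population libraries, where 47.9% of all genes were. Of the genes higher in cells, 96.4% were higher by any amount there. Past the fold in the opposite direction in the population libraries were 8 of the genes lower in cells and 0 of those higher in cells. Each of the 98 and 76 genes kept its direction in every alternative computed from the cells. In matched cells, 39 of the 98 and 63 of the 76 stayed past 1 log2. The plot of both readouts shows the 2 groups.

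**Figure D1:**
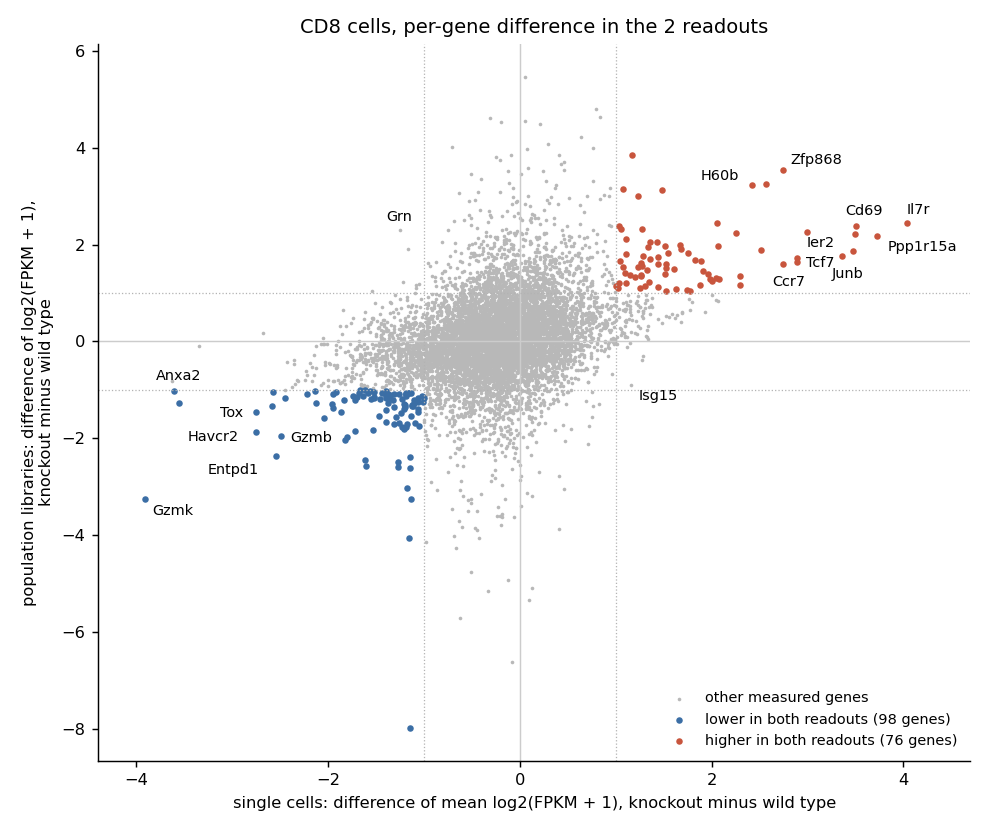
Difference of log2(FPKM + 1), knockout minus wild type, over kept cells (horizontal axis) and between the population libraries (vertical axis), 1 point per measured gene. The 98 blue genes lie at least 1 log2 lower in both and the 76 red genes at least 1 log2 higher in both; dotted lines mark 1 log2.

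Most differences followed the share of cells in which a gene was seen. Over the 98 lower genes the median share was 39.6% in wild-type and 18.2% in knockout cells, and 94 of them were at least 10 percentage points lower. Their level in the cells that had them differed by a median of -0.52 log2. Over the 76 higher genes the median share was 28.5% against 50%, 74 were at least 10 points higher, and the level where detected was higher by a median of 0.89 log2. These shares describe how the chosen genes differed and are no separate support for them.

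**Figure D2:**
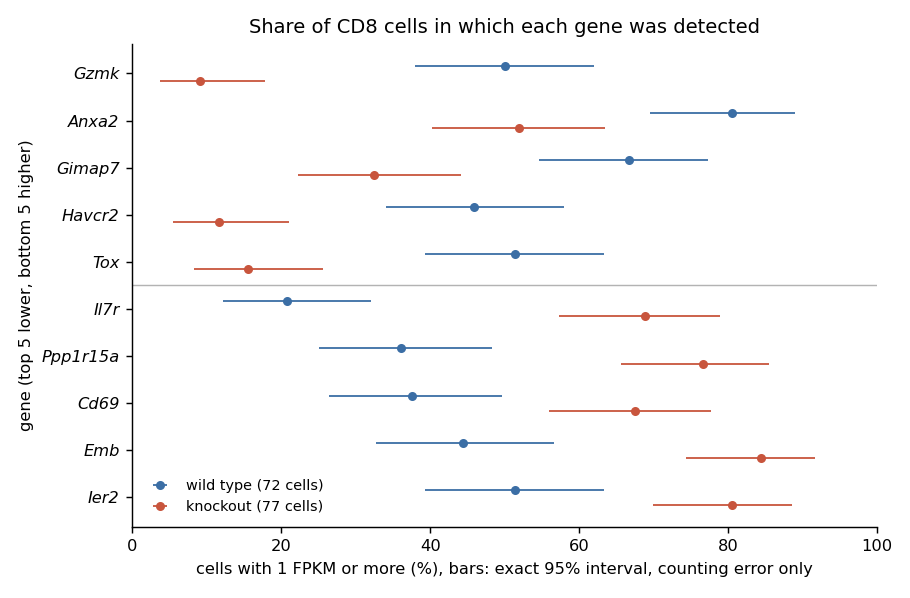
Share of kept cells with at least 1 FPKM (horizontal axis, percent) for the 5 lower and 5 higher genes with the widest difference in cells among those past the fold in both readouts, wild type in blue and knockout in red; bars are exact 95% intervals of counting error. The intervals do not overlap between the plates for any of these 10 genes, which were chosen for wide differences. Intervals were apart for 37 of the 98 lower genes, 27 of the 76 higher genes and 220 of all 8117 genes.

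Genes of naive and stem-like T cells were higher in knockout cells. Of 22 measured members of that list, 8 (36.4%, against 2.07% of all genes) were at least 1 log2 higher and 0 lower, with a median of 0.74 log2 in cells, 1.42 in the population libraries and 0.57 in matched cells. Il7r, the IL-7 receptor chain through which naive and memory T cells receive survival signals (chromosome 15, 9505788 to 9530176), had the widest difference. It ranged from 0 to 1300 FPKM in wild-type cells (median 0) and from 0 to 2269 in knockout cells (median 143.8). In the wild type 15 of 72 cells had it (20.8%, interval 12.2 to 32%), and in the knockout 53 of 77 (68.8%, 57.3 to 78.9). The cell ranges overlapped, as they did for each gene described here, and most wild-type cells lay at 0. The difference was 4.04 log2 in cells and 3.91 in matched cells, and the population libraries held 61.5 and 339.8 FPKM, 5.52-fold higher in the knockout library.

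Tcf7, which encodes TCF-1 (chromosome 11, 52252371 to 52283014), had a median of 0 FPKM in wild-type cells (highest 1499) and 105.4 in knockout cells (highest 1744). It was detected in 26.4% and 61% of cells, with mean levels of 2.04 ± 3.53 and 4.93 ± 4.24 log2(FPKM + 1) (SD over cells, n = 72 and 77). The population libraries held 110.1 and 345.7 FPKM. Where detected, its level was 7.73 and 8.08 log2, so the plates differed mainly in how many cells had it.

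Ccr7, the receptor that guides T cells into lymph nodes, was seen in 11.1% of wild-type and 39% of knockout cells, and the population libraries held 384.3 and 1163 FPKM. Emb, an adhesion glycoprotein gene, was seen in 44.4% and 84.4% of cells and was 3.50 log2 higher in knockout cells, or 1.21 on arithmetic means. S1pr1, a receptor for exit from tissue, was 1.69 log2 higher in cells, 0.82 in matched cells and 0.54 on arithmetic means. A further 3 genes were picked after their values were seen, of which Satb1, a chromatin organizer, was 1.89 log2 higher in cells. Lef1, which acts beside TCF-1, was 0.62 log2 higher in cells and 0.40 log2 lower in the population library, so not all of the list moved in the same direction. Klf2, a quiescence factor, lay at 0.9 FPKM in the wild-type population library and 29.3 in the knockout one, and in cells it was 0.76 log2 higher.

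**Figure D3:**
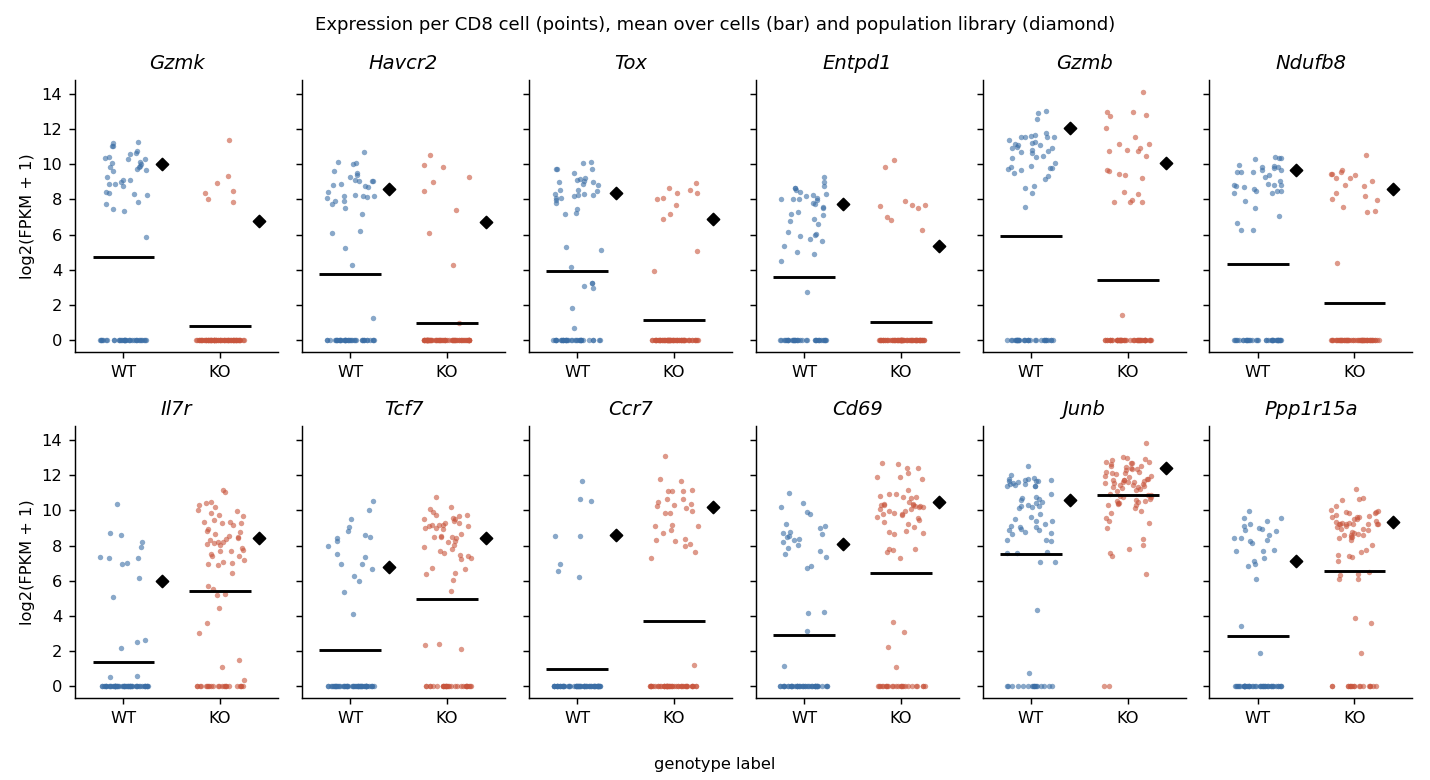
log2(FPKM + 1) per kept cell for 12 genes, wild type (blue, n = 72) and knockout (red, n = 77), with the mean over cells as a bar and the population library as a diamond. Cells fall into those at or near 0 and those at high levels, and the plates differ mainly in the number of cells in each.

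Early-response genes, which cells switch on within minutes of stimulation or stress, were higher in knockout cells as well. Apart from the AP-1 family, 12 of 29 measured members (41.4%, against 2.07% of all genes) were at least 1 log2 higher and 0 lower, and 26 lay above 0. Their median was 0.81 log2 in cells, 1.19 in the population libraries and 1.08 in matched cells. The median level of the list per cell was 2.72 log2 in wild-type and 3.71 in knockout cells, and 61 of 77 knockout cells lay above the wild-type median. Ppp1r15a, which encodes the stress-induced phosphatase subunit GADD34 (chromosome 7, 45522916 to 45526268), had medians of 0 and 387.4 FPKM (highest 996.6 and 2401). It was detected in 36.1% of wild-type and 76.6% of knockout cells, and the population libraries held 140.6 and 638.2 FPKM. Ier2, an immediate-early gene, had medians of 13.1 and 551.8 FPKM and was 3.48 log2 higher in cells, 1.96 on arithmetic means and 1.87 in the population library.

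Of 9 measured AP-1 family genes, 4 were at least 1 log2 higher (44.4%, against 2.07% of all genes) and 1 was lower (11.1%, against 9.19%), with a median of 0.79 log2 in cells and 1.77 in the population libraries. Junb, an AP-1 subunit gene (chromosome 8, 84974484 to 84978718), was seen in 75% and 97.4% of cells. Its median was 578 FPKM in wild-type cells (range 0 to 5835) and 2741 in knockout cells (range 0 to 14452), and the population libraries held 1574 and 5363 FPKM. Fos was 2.07 log2 higher in cells and Fosl2 2.26, whereas the member past the fold in the other direction, Batf, was 1.19 log2 lower in cells and 1.13 lower in the population library. Batf encodes the AP-1 partner that works in effector T cells, and in matched cells its difference was -0.05 and without cycling cells -0.60. In the CD4 cells of the same sources, the medians of these lists were 0.59 log2 for the early-response genes and 0.88 for the AP-1 genes, against -0.04 for all genes measured there.

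Promoters of early-response genes were read from RefSeq (GRCm38.p6, the assembly of mm10; 250 bases before to 50 after a start, given 5′ to 3′ along the gene), since the list lay above all genes in both readouts. Of the 46 list members, 37 had an entry used here, with 49 promoters. The cyclic AMP response element TGACGTCA, which reads the same on both strands, stood in 4 of the 37 genes, against 1.79% of all 32851 promoters. The AP-1 site, TGAGTCA or on the other strand TGACTCA, stood in 1 of the 37 genes and in 5.20% of all promoters. The kappaB motif stood in 8 genes (8.46% of all promoters) and the CArG box in 3 (1.63%). At least 1 of these motifs stood in 14 of the 37 genes. Among the widest genes past the fold in both readouts, it was 4 of 11 lower and 3 of 10 higher genes with an entry. Genes with several promoters have more chances of a match than a single promoter has, and a match is a description of letters and not a bound site. The promoters below were picked after values and matches were seen, with the match in capitals. They are 3 higher genes with the cyclic AMP response element, 1 with a CArG box, and for contrast Gzmb, which was lower and holds an AP-1 site. The windows lie at chr7:45526219-45526518, chr17:26508423-26508722, chr1:134079106-134079405 and chr7:28379179-28379478, and for Gzmb at chr14:56262285-56262584, all on the minus strand.
Ppp1r15a: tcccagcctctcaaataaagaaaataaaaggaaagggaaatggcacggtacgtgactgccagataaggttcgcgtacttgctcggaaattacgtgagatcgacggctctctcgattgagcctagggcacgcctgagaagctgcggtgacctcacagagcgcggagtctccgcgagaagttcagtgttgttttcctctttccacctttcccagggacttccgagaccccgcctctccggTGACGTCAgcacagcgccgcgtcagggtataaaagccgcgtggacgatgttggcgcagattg
Dusp1: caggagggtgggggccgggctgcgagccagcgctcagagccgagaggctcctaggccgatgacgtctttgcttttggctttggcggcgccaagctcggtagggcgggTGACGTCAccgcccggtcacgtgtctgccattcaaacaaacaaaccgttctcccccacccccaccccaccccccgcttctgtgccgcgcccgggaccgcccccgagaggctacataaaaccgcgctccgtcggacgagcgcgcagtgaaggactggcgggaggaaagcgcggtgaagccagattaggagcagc
Btg2: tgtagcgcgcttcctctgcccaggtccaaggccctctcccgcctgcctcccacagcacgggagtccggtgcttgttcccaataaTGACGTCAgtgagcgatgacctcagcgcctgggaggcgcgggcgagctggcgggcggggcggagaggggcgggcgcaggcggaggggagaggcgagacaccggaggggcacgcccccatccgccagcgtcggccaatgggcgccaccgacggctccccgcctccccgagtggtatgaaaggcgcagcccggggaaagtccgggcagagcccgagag
Zfp36: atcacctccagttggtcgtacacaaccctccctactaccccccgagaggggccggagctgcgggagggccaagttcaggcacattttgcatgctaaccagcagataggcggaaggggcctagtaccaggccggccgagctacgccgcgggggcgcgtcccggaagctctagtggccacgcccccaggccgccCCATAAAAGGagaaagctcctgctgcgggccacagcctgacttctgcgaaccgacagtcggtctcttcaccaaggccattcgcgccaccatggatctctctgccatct
Gzmb: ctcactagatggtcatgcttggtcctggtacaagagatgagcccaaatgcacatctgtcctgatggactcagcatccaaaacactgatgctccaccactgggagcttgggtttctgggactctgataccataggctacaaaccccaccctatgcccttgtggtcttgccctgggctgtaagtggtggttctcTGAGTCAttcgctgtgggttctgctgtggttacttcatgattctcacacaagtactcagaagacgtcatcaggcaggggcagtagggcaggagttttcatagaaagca

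The matches began 12 bases before the annotated start in Ppp1r15a and 58 bases before it in both Zfp36 and Gzmb, and further upstream in Dusp1 and Btg2. Dusp1, a phosphatase that switches off MAP kinases, was 1.94 log2 higher in knockout cells and 0.62 in the population library. Btg2, an antiproliferative gene, was 1.34 and 1.95 log2 higher. Zfp36, whose protein speeds the decay of cytokine transcripts, was 1.96 and 1.40 log2 higher. The other motif-bearing genes did not all follow, since Maff, with TGACGTCA in 1 of its promoters, was seen in 2.78% of wild-type and 5.19% of knockout cells.

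Genes that control RNA decay were higher in part: 8 of 23 (34.8%, against 2.07% of all genes) were at least 1 log2 higher and 1 lower (4.35%, against 9.19%), with a median of 0.31 log2 in cells, 0.46 in the population libraries and 0.34 in matched cells. Zfp36l1, a relative of Zfp36, was seen in 45.8% of wild-type and 84.4% of knockout cells and was 2.89 log2 higher, or 1.19 on arithmetic means. Btg1, an antiproliferative partner of deadenylases, was seen in 80.6% and 96.1% of cells and was 2.00 log2 higher, but 1.24 in cells with 2000 or more genes and 0.98 on arithmetic means. Zc3h12d, an RNA-binding protein gene, was 1.82 log2 lower in cells and 2.04 lower in the population library. Some of these genes also sit in the early-response list, so the lists are not separate counts.

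NF-kB pathway genes past the fold on the higher side were Nfkbiz, Tnfaip3 and Nfkbia. Nfkbiz, which encodes a nuclear IkB protein, was seen in 30.6% of wild-type and 67.5% of knockout cells, and the population libraries held 44.1 and 215.3 FPKM. Tnfaip3, the deubiquitinase A20, and Nfkbia, the inhibitor IkB alpha, were 2.04 and 1.63 log2 higher in cells. On arithmetic means they were 1.28 and 0.74 higher, and Nfkbia was 0.94 higher in cells with 2000 or more genes. Traf1 was 1.34 log2 lower in cells, 0.50 in matched cells and 0.32 on arithmetic means, and 0.80 higher in the population library. Of the 21 measured genes, 3 were higher (14.3%, against 2.07% of all genes) and 1 lower (4.76%, against 9.19%), with a median of 0.17 log2 in cells and 0.95 in the population libraries. Cd69, an early activation antigen that also retains T cells in tissue (chromosome 6, 129267325 to 129275436), had medians of 0 and 524.2 FPKM (highest 2027 and 6640), was seen in 37.5% and 67.5% of cells, and was 5.25-fold higher in the knockout population library.

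Co-inhibitory receptors were lower in knockout cells. Of 13 measured, 7 (53.8%, against 9.19% of all genes) were at least 1 log2 lower and 1 (7.69%, against 2.07%) higher. In cells 10 lay below 0, and in the population libraries 8 lay below 0 and 5 above. Of all genes, 67.98% lay below 0 in cells and 47.9% in the population libraries, so a place below 0 in cells was common to most genes. The list median was -1.27 log2 in cells, -0.40 in the population libraries and -0.83 in matched cells. The median level of the list per cell was 3.91 log2 in wild-type and 1.54 in knockout cells, and 12 of 77 knockout cells lay above the wild-type median. Havcr2, which encodes TIM-3 (chromosome 11, 46454935 to 46481255), had a median of 0 FPKM in both plates (highest 1672 and 1457). In the wild type 33 of 72 cells had it (45.8%, interval 34 to 58%), and in the knockout 9 of 77 (11.7%, 5.49 to 21%). The population libraries held 384.3 and 104.6 FPKM, and the difference was -2.75 log2 in cells and -2.26 in matched cells. Its level where detected was 8.15 and 8.31 log2, so the few knockout cells that had Havcr2 had as much of it.

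Entpd1, which encodes the ectonucleotidase CD39 (chromosome 19, 40612366 to 40741602), was seen in 50% of wild-type and 13% of knockout cells, and the population libraries held 211.96 and 40.1 FPKM. Pdcd1, which encodes PD-1, had medians of 550.8 and 0 FPKM in cells, was seen in 62.5% and 32.5% of them, and was 3.63 log2 lower in cells but 1.84 on arithmetic means and 0.82 lower in the population library. Lag3, a receptor for MHC class II, was 3.35 log2 lower in cells, with medians of 233.03 and 0 FPKM, but 0.68 lower on arithmetic means. The Lag3 difference between the population libraries was -0.10, at 1103 and 1029 FPKM, so the 2 readouts did not show the same size of difference for it. Nt5e, which encodes CD73 and follows CD39 in making adenosine, went the other way. It was chosen after its values were seen, was detected in 5.56% of wild-type and 23.4% of knockout cells, and held 3.65 and 66.6 FPKM in the population libraries.

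Cytotoxic granule genes were lower for some members and not for others. Of 19 measured, 6 (31.6%, against 9.19% of all genes) were at least 1 log2 lower and 1 higher (5.26%, against 2.07%), with a median of -0.29 log2 in cells and -0.24 in the population libraries. Gzmk, a granzyme gene (chromosome 13, 113171608 to 113225908), had the widest difference of the genes lower in both readouts. It had medians of 29.1 and 0 FPKM (highest 2432 and 2720) and was seen in 36 of 72 cells of the wild type (50%, 38 to 62%) and 7 of 77 of the knockout (9.09%, 3.73 to 17.8). The population libraries held 1043 and 108.3 FPKM, 9.63-fold lower in the knockout library, and the difference was -3.91 log2 in cells and -3.74 in matched cells. Gzmb, the main cell-killing granzyme (chromosome 14, 56258838 to 56262260), had medians of 496.6 and 0 FPKM, with the highest cell, at 17666 FPKM, in the knockout plate. It was seen in 55.6% and 33.8% of cells, and the population libraries held 4227 and 1084 FPKM. The Gzmb difference narrowed from -2.49 log2 to -1.87 in matched cells and -1.76 without cycling cells. On arithmetic means it was -0.30, short of the fold. Ctsb and Rab27a, a lysosomal protease and a granule-docking GTPase, were 1.74 and 1.51 log2 lower in cells, but 0.71 and 0.93 on arithmetic means. Gzma, chosen after its values were seen, lay on the other side, 0.39 log2 higher in cells and 1.02 in the population library.

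Transcription factors of effector and dysfunctional cells were lower for 8 of 24 members (33.3%, against 9.19% of all genes) and higher for 0, with a median of -0.20 log2 in cells, near that of all genes, and 0.07 in the population libraries. Tox, which sustains chronically stimulated CD8 cells (chromosome 4, 6686353 to 6991557), had medians of 4.66 and 0 FPKM (highest 1133 and 479) and was seen in 51.4% and 15.6% of cells. The population libraries held 325.1 and 118.5 FPKM. Ikzf3, the factor Aiolos, was 1.94 log2 lower in cells, 1.04 on arithmetic means and 1.38 in the population library. Prdm1, which encodes Blimp-1, was 1.27 log2 lower in cells, 0.92 without cycling cells and 0.31 lower in the population library. Tbx21, which encodes T-bet and was picked after its values were seen, differed by -0.03 in cells and -0.11 in the population libraries.

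Other genes lower in both readouts belonged to several functions. Anxa2, an annexin gene, was seen in 80.6% and 51.9% of cells, and the population libraries held 6431 and 3153 FPKM. Gimap7, a lymphocyte GTPase gene, was seen in 66.7% and 32.5%. Of the 8 measured members of its family, 2 were at least 1 log2 lower in cells (25%, against 9.19% of all genes). The family median was -0.37 log2 in cells but 0.16 in the population libraries. Rgs16, an inhibitor of G protein signals, was seen in 48.6% and 19.5% of cells. Sh2d1a, which encodes the SLAM adaptor SAP, was 2.13 log2 lower in cells, and Prdx2, a peroxidase gene, 1.96. On arithmetic means they were 1.03 and 0.98 lower. AW112010, annotated as a long non-coding RNA, was seen in 80.6% and 74% of cells, with medians of 2400 and 577.1 FPKM, so its difference lay in level more than in share.

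Among genes of the IL-27 receptor chain and its signal, 2 of 10 were at least 1 log2 higher (20%, against 2.07% of all genes) and 0 lower. These were the feedback inhibitor genes Socs1 and Socs3. Socs1 was seen in 27.8% of wild-type and 55.8% of knockout cells, and the population libraries held 36.3 and 83 FPKM. Socs3 had medians of 0 and 103.9 FPKM in cells and 128.2 and 316.7 in the population libraries. Stat3, Jak1 and Il6st, named after their values were seen, differed by 0.04, 0.41 and 0.58 log2. Over the JAK, STAT and SOCS families, 4 of 21 genes were higher (19.05%, against 2.07% of all genes) and 1 lower (4.76%, against 9.19%). Their median was 0.05 log2 in cells and 0.45 in the population libraries.

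Il10, which IL-27 is known to induce, was seen in 5 of 72 wild-type cells and 0 of 77 knockout cells, a count of 0 that allows a share of up to 4.68% (upper bound of the exact interval). It lay below the gene filter, was chosen after its values were seen, and held 82.5 and 39.4 FPKM in the population libraries. Il10ra, the IL-10 receptor chain, was seen in 54.2% and 19.5% of cells and was 2.44 log2 lower in cells, 1.61 in matched cells and 1.18 in the population library. Over 12 measured genes linked to IL-27 in T cells, 3 were at least 1 log2 lower (25%, against 9.19% of all genes) and 0 higher, namely Gzmb, Prdm1 and Batf, and the median was -0.11 log2 in cells and -0.23 in the population libraries.

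Of 22 cytokine receptor chains, 4 were higher (18.2%, against 2.07% of all genes) and 1 lower (4.55%, against 9.19%), with Il7r and Il10ra at the ends. Il2rg, the common gamma chain that pairs with the IL-7 receptor, was 1.78 log2 higher in cells and seen in 83.3% and 97.4% of them, but 0.92 higher in cells with 2000 or more genes and 0.50 on arithmetic means. Il18r1, a chain of the IL-18 receptor, was 1.52 log2 higher in cells, 0.95 in cells with 2000 or more genes, and 3.98-fold higher in the knockout population library. Cytokine and chemokine genes were lower for 4 of 15 (26.7%, against 9.19% of all genes). Ccl5, the most abundant of them, had medians of 5286 and 2033 FPKM, and Ccl3 was 1.80 log2 lower in cells, 1.04 on arithmetic means and 1.98 in the population library. Ccl4 was 1.56 log2 lower in cells but 0.19 higher in the population library, so its direction did not hold in both. Tnf, which was picked after its values were seen, was 0.64 log2 higher in cells and held 17.2 and 337.2 FPKM in the population libraries.

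Receptors for tissue entry and retention differed by member. Of 17 chemokine and lipid receptors, 5 were higher (29.4%, against 2.07% of all genes) and 2 lower (11.8%, near the 9.19% of all genes). Gpr18, a lipid receptor, was 1.88 log2 higher in cells and 1.16 in the population library. Of 24 integrins and adhesion genes, 4 were higher (16.7%, against 2.07% of all genes) and 3 lower (12.5%, again near the share of all genes). Itgb7, the beta 7 integrin chain of gut and epithelial homing, was seen in 27.8% and 51.9% of cells. Itgae, its alpha E partner known as CD103, was seen in 0 of 72 wild-type cells and 8 of 77 knockout cells (10.4%, 4.59 to 19.4), and held 0.43 and 34.4 FPKM in the population libraries. A count of 0 among 72 cells allows a share of up to 4.99%.

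Genes of mitochondrial respiration were lower in knockout cells, in cells more than in the population libraries. Of 36 measured complex I subunits, 13 (36.1%, against 9.19% of all genes) were at least 1 log2 lower and 0 higher, and 34 lay below 0, where 67.98% of all genes lay. Their median was -0.82 log2 in cells and -0.46 in the population libraries. Complexes III and IV and ATP synthase had medians of -0.87, -0.92 and -0.85 log2 in cells and -0.43, -0.50 and -0.45 in the population libraries. Ndufb8, a complex I subunit gene lower in both readouts, was seen in 48.6% and 24.7% of cells, and the population libraries held 809.8 and 382.7 FPKM. In matched cells the medians came to -0.27 for complex I, -0.63 for complex III, -0.37 for complex IV and -0.49 for ATP synthase, against 0.00 for all genes. The differences were thus smaller at equal numbers of detected genes and still below 0.

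Proteasome subunits had a similar pattern, with a median nearer 0 in matched cells than the respiratory lists. Of 41, 18 (43.9%, against 9.19% of all genes) were at least 1 log2 lower, 0 were higher and 39 lay below 0. The median was -0.94 log2 in cells, -0.41 in the population libraries and -0.17 in matched cells. Psmb4 was seen in 63.9% and 36.4% of cells, and the population libraries held 966.7 and 472.7 FPKM. Its difference moved from -2.14 log2 to -1.15 in matched cells. Sterol synthesis genes, which make cholesterol, were lower for 9 of 21 members (42.9%, against 9.19% of all genes). Their medians were -0.82, -0.37 and -0.63 in cells, population libraries and matched cells. Fdps, which makes the isoprenoid farnesyl diphosphate, was 1.76 log2 lower in cells and 1.07 without cycling cells.

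Glycolysis genes had medians of -0.70 log2 in cells, -0.67 in the population libraries and -0.59 in matched cells, and 5 of 19 (26.3%, against 9.19% of all genes) were at least 1 log2 lower. The list had a high median level, where genes past the fold were most common, and the part of level in that share was not tested. Single members moved more than the median did. Pgam1, a mutase of the pathway, was 1.43 log2 lower in cells but 0.50 higher in matched cells. Pgk1 had medians of 549.6 and 0 FPKM in cells and held 1875 and 1064 FPKM in the population libraries, and its difference went from -2.17 to -1.37 in matched cells. Tpi1 was 1.84 log2 lower in cells, 0.91 in matched cells and 1.21 in the population library. Ribosomal protein genes lay near 0, with 46 large subunit genes at a median of 0.24 log2 in cells and -0.15 in the population libraries, and 31 small subunit genes at 0.34 and -0.10. Of these 77 genes 0 were at least 1 log2 lower in cells. In matched cells their medians were 0.02 and 0.08.

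**Figure D4:**
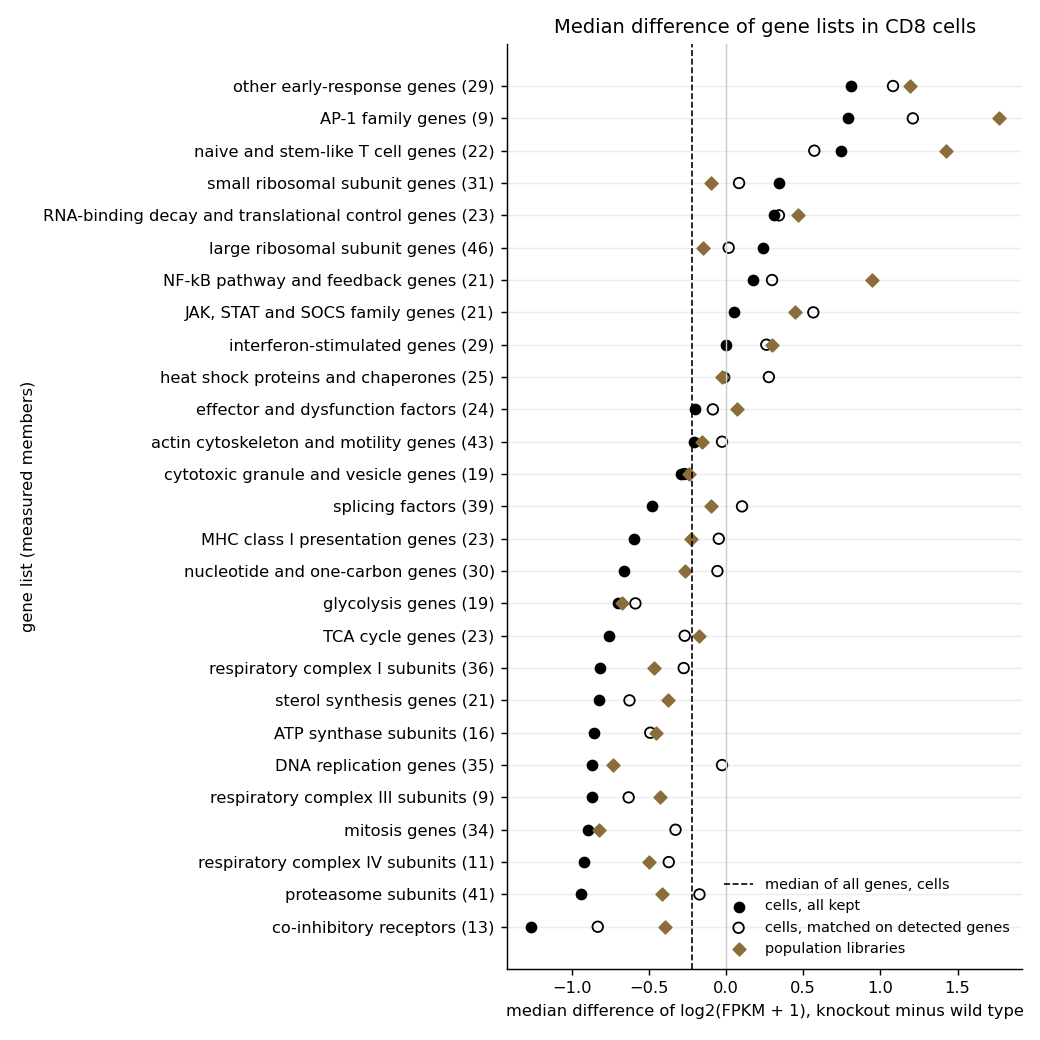
Median difference of log2(FPKM + 1), knockout minus wild type, over measured members of 27 lists (number in brackets) for all kept cells (filled), matched cells (open) and population libraries (diamonds); the dashed line is the median of all genes in cells, -0.22. Early-response and naive genes lie above 0 in all 3. Co-inhibitory receptors and glycolysis, respiratory, proteasome and replication genes lie below 0 in all 3. Of these, proteasome and replication genes come nearest to 0 in matched cells.

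Cell cycle genes were lower, and high levels of the mitosis list lay in few cells. Of 34 mitosis genes, 14 (41.2%, against 9.19% of all genes) were at least 1 log2 lower, 0 were higher and 33 lay below 0, with medians of -0.89 log2 in cells and -0.82 in the population libraries. Tuba1b, Stmn1 and Hmgb2, which encode a tubulin, a tubulin-binding protein and a chromatin protein of dividing cells, were 2.43, 2.37 and 2.31 log2 lower in cells. In matched cells these differences were -1.18, -1.22 and -2.09, and in the population libraries -0.42, -0.95 and -0.83. On arithmetic means they were -0.70, -1.46 and -1.41. Tuba1b was seen in 75% of wild-type and 54.5% of knockout cells, Hmgb2 in 80.6% and 57.1%, and Stmn1 in 36.1% and 9.09%. Tuba1b and Hmgb2 were thus not confined to few cells. DNA replication genes had medians of -0.87 and -0.74, and Rrm1, a subunit gene of ribonucleotide reductase, was seen in 40.3% and 13% of cells. Cells with at least 5 of 10 cycle genes detected were 14 of 72 wild-type (19.4%, 11.1 to 30.5) and 5 of 77 knockout cells (6.49%, 2.14 to 14.5%). They held a median of 4303 and 5165 detected genes, against 2380 and 2225 in the other cells. Without them the mitosis median was -0.50 log2, and 6.10% of genes instead of 9.19% were at least 1 log2 lower. These cells were picked by cycle genes, so a smaller mitosis difference without them follows in part from the choice. In matched cells the mitosis median was -0.33 and the replication median -0.03.

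**Figure D5:**
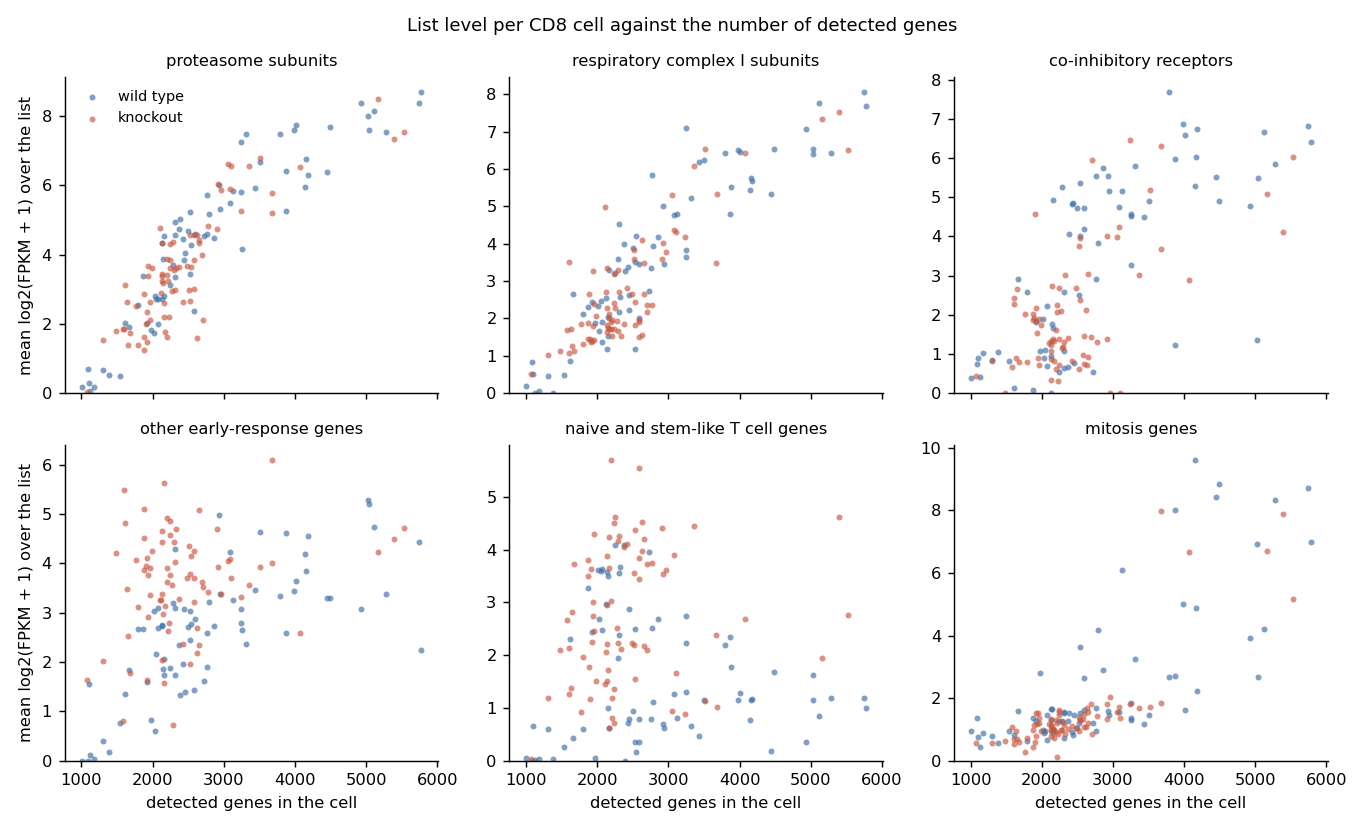
Mean log2(FPKM + 1) over each of 6 lists per kept cell (vertical axis) against the number of detected genes in the cell (horizontal axis), wild type in blue and knockout in red. Proteasome and complex I levels climb with detected genes on both plates, mitosis levels are high in a few cells with many genes, and early-response and naive list levels are higher in many knockout cells at the same number of genes.

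Pairs of genes were counted in the same cells. These genes were picked among those with wide differences, so the joint counts follow in part from the share of each gene. Whether 2 genes went together more often than their shares alone would give was not tested. Il7r and Tcf7 were detected together in 12 of 72 wild-type cells (16.7%) and 38 of 77 knockout cells (49.4%, 37.8 to 61%). Havcr2 and Entpd1 were together in 25 wild-type (34.7%) and 6 knockout cells (7.79%). Gzmk and Havcr2 were together in 25 wild-type (34.7%) and 3 knockout cells (3.90%). Tcf7 and Havcr2 were together in 0 cells of either plate, which allows up to 4.99% and 4.68%. Undetected transcripts are common in single cells, so a gene not seen may still be expressed. Il7r and Havcr2 were together in 0 wild-type and 5 knockout cells. Il7r and Gzmb were together in 2 of 72 wild-type cells (2.78%) and 16 of 77 knockout cells (20.8%). Cd69 and Junb were together in 33.3% and 66.2% of cells, and Cd69 was seen with Entpd1 in 16.7% and 6.49%.

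Some genes with wide differences belonged to none of these groups. Zfp868, a zinc finger protein gene, was seen in 19.4% and 59.7% of cells, and the population libraries held 20.4 and 249.7 FPKM. Gm12505, annotated as a long non-coding RNA, was seen in 50% and 89.6%, and the population libraries held 4.4 and 50.8 FPKM. H60b, which encodes a ligand of the receptor NKG2D, was seen in 8.33% and 46.8% of cells. Klrk1, which encodes NKG2D itself, was 1.75 log2 higher in cells, 0.94 on arithmetic means and 1.06 in the population library. Gm5506 held 263.7 FPKM in the wild-type population library and 0.04 in the knockout one, yet it was seen in 58.3% and 51.9% of cells. It was picked after its values were seen.

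Genes with opposite signs in the 2 readouts included the 8 that were past the fold in both. Grn, which encodes progranulin, was 1.25 log2 lower in cells (0.75 without cycling cells) and 5.01-fold higher in the knockout population library. Slamf1, a SLAM family receptor gene, was 1.17 log2 lower in cells (0.60 in matched cells) and 1.90 log2 higher in the population library. Isg15, an interferon-induced ubiquitin-like protein gene, was 1.16 log2 higher in cells and 0.90 lower in the population library, short of the fold there. Over 29 interferon-stimulated genes, 4 were higher (13.8%, against 2.07% of all genes) and 3 lower (10.3%, near the 9.19% of all genes), with a median of 0.00 in cells and 0.30 in the population libraries. Irf7 was 1.69 log2 higher in cells and Zbp1 1.62 lower, the latter 0.27 lower on arithmetic means.

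In the CD4 cells of the same 2 sources, some lists had medians close to those in CD8 cells, such as the early-response and AP-1 genes given above, and others did not. Co-inhibitory receptors lay at 0.33 log2, complex I at -0.07, the proteasome at -0.06 and mitosis at -0.10 in CD4 cells. Naive and stem-like genes lay at 0.21 log2 there, against 0.74 in CD8 cells. In the CD4 population libraries the medians were 0.05 for co-inhibitory receptors, 0.26 for complex I, 0.32 for the proteasome and -0.01 for mitosis. Early-response and AP-1 genes lay at 1.12 and 0.99 in those libraries. The naive list lay at -0.21, the opposite sign to the CD4 cells. With 1 source per genotype the difference between the cell types was not tested.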

How the data were processed

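The authors deposited 1 table of FPKM values with TMM normalization covering 23420 genes by symbol. Bowtie, RSEM and mm10 are named in the submitters' processing notes, without a tool version in the sources used here. RSEM splits reads shared by related genes by an estimate, so values of genes with close copies, such as Klrc1, Klrc2, Gm5506 and the Bcl2a1 genes, are uncertain. The table holds no read counts, so depth per well is unknown and the number of genes at 1 FPKM or more stands in for it.

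Wells were grouped by title and genotype label. Differences were taken as stated in the results, with a pseudocount of 1 FPKM, in Python 3.11.15 with pandas 2.3.3 and numpy 2.4.6. Shares carry exact Clopper-Pearson 95% intervals (scipy 1.17.1), for counting error alone, with no part for variation among mice. No test of genotype was run, since each genotype has 1 source. The calculation of differences was tested on simulated data. Coordinates are from GENCODE M21 (GRCm38, the assembly of mm10).

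Named genes were the 15 widest lower and 15 widest higher genes past 1 log2 in both readouts, the 5 in each direction with opposite population differences, up to 4 members of each list with the widest difference, Il27ra and the markers. Of 1434 members of 68 lists, 1239 passed the gene filter, 6 were matched through older symbols and 3 had no match. The cells, gene lists and rules were chosen with earlier results of these data known. Alternatives were pseudocounts of 0.1 and 10 FPKM, other gene and cell filters, arithmetic means, centring, rescaling, matched cells, and leaving out cycling or marker-positive cells. Some genes that the rule names are not reported here.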

Additional observations from a re-analysis of the deposited data

Results flagged for a closer look

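Signal was present in wells that held no cell and enter no comparison. The wild-type CD8 no-cell well held 11 genes at 1 FPKM or more, led by Rpl12 at 937.6 FPKM, and the knockout well held 8, led by Lars2 at 2462 FPKM. None of the genes named from both readouts was among them.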

How the results depend on the processing

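Of 680 list medians recomputed under alternatives, 85, from 29 lists, lay on the other side of 0 from the full set. Of these 1 belonged to a list at least 0.5 log2 from 0, and the rest to lists nearer 0. Of 2709 recomputed gene differences, 16 lay on the other side of 0, and 3 of these belonged to genes past 1 log2 in the full set. Of the named genes past the fold in cells, 47.4% stayed past it on arithmetic means, 67.5% in matched cells and 84.3% without cycling cells. In matched cells the median of annexins, S100 proteins and galectins was 0.10, and Pgam1 differed by 0.50, Idh3g by 0.0206 and Cct7 by 0.31 log2, all below 0 in the full set; the cause was not tested. Genes lower and higher in cells came to 20.1% and 4.30% of those tested with a pseudocount of 0.1 FPKM and to 1.69% and 0.604% with 10 FPKM, since a larger pseudocount shrinks differences. Genes past the fold in both readouts were then 2.57% lower and 1.65% higher, or 0.345% and 0.419%, and the population shares with 10 FPKM were 3.86% and 4.94%. With cells of 2000 or more genes, 13.6% were lower. With arithmetic means 8.22% were higher in cells, and 2.62% and 2.65% lower and higher in both. Centring on the median gave 5.41% and 3.46%. Matched cells gave 4.48% and 5.23%, with 0.538% lower in both. Without cycling cells 6.10% were lower, and 0.695% in both. Leaving out cells with any melanoma or myeloid marker was planned but was not run, since 0 wild-type and 2 knockout cells remained. The version that ignores Tyr was chosen after seeing the data; 83 of the 98 and 64 of the 76 genes stayed past the fold, and 14.1% of genes were lower and 2.65% higher. No paired analysis was possible because each genotype has 1 source. With FPKM alone the read depth behind a value is unknown, and no alternative bears on the spread between mice.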

Other observations

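Tyr, the tyrosinase gene of pigment cells, was listed above 1 FPKM in all 72 wild-type CD8 cells (2.26 to 371.5 FPKM, median 8.72) and in 75 of 77 knockout CD8 cells (0 to 55.9, median 7.73). It was also listed in 74 of 74 wild-type and 77 of 78 knockout CD4 cells, with medians of 7.13 and 8.36 FPKM. All 4 no-cell wells held 0. The population libraries held 12.9 and 8.49 FPKM for CD8 cells and 18.81 and 18.96 for CD4 cells.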
